A study of Mus musculus with 8 samples.

Results

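Ephrins, Slits and netrins are guidance cues that steer migrating neurons and growing axons, and their receptors were followed here in mouse neural precursor cells given extra Nfia. The genes were taken by symbol: the ephrins (Efna and Efnb), the Eph receptors (Epha and Ephb), Slit1 to Slit3, Robo1 to Robo4, the netrins and netrin-G genes (Ntn and Ntng), Unc5a to Unc5d, Dcc and Neo1. That gave 40 genes of the 23997 symbols in each library, 16 for ligands and 24 for receptors. Poly(A) RNA-seq gave 3 libraries of cells 3 days after transduction with Nfia, a transcription factor of the nuclear factor I family that takes part in the onset of glial development, and 3 libraries of control cells. Both groups were primary adherent cultures of ICR mouse telencephalon, taken at E11.5 by the growth protocol (the stage label gives E11) and grown with 10 ng/mL basic fibroblast growth factor. The labels do not give the vector, what the control cells received or whether separate cultures were used, and p-values describe only how these libraries vary, and that variation may be technical.

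Ephrins are bound to the cell surface, ephrin-As by a lipid anchor and ephrin-Bs by a transmembrane segment. They bind Eph receptor tyrosine kinases on neighbouring cells and can also signal back into the cell that carries them. Slits are secreted and signal through Robo receptors, mostly as repellents. Netrin-1 is secreted or held in the matrix. It attracts axons through Dcc and repels them through Unc5 receptors, and in the embryonic forebrain these systems set cell boundaries, neuron migration and axon routes.

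Levels are FPKM, fragments scaled by transcript length and by library, so genes can be compared within a library. Nfia itself was at 69.0, 85.6 and 103.5 FPKM in the Nfia libraries, against 19.8, 23.9 and 22.2 FPKM in the control libraries. Depth relative to control 1, read roughly from the steps of low values, lay between 0.760 and 1.11. Markers are called higher or lower by the limma test described below, which called 16.1% of all genes tested higher and 15.1% lower. The precursor genes Sox2, Nes, Vim and Fabp7 were high in every library, and of 12 precursor markers 5 were higher and 4 lower. The 16 neuron markers summed to 1257 to 1275 FPKM with Nfia and 1937 to 2015 FPKM in control. Of these, 13 were lower, Nefl was higher, and Rbfox3 and Ncam1 did not pass the test. The 10 markers of GABA neurons and the ventral telencephalon summed to 234 to 282 FPKM with Nfia and 412 to 463 FPKM in control, and 9 of them were lower. Of the 8 oligodendrocyte precursor markers 2 were higher (Olig1 and Olig2) and 2 lower (Pdgfra and Mbp). They summed to 1055 to 1116 FPKM with Nfia and 365 to 411 FPKM in control, mostly from Olig1 and Olig2. Of 8 astrocyte markers 5 were tested, with Aldoc and Sparcl1 higher and Gfap and Aldh1l1 lower. The astrocyte markers summed to 301 to 316 FPKM with Nfia and 180 to 206 FPKM in control. Most of that sum was Aldoc (means of 179 FPKM with Nfia and 116 FPKM in control) and Sparcl1 (105 and 44.2 FPKM). Aqp4, S100b and Gjb6 stayed below a mean of 1 FPKM and were lower in the mean with Nfia. Mesenchymal markers summed to 14.1 to 33.7 FPKM with Nfia and 19.5 to 33.3 FPKM in control, with 1 of 8 tested lower. Microglia and erythroid markers summed to at most 3.09 FPKM in any library. The part of these cell type markers in the results below was not tested. In a mixed culture, fewer cells of a type and less RNA per cell cannot be told apart.

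Of the 40 guidance genes, 31 had a mean of at least 1 FPKM and were tested, and 15 of them changed. Lower with Nfia were 13: Efnb1, Efnb2, Efnb3, Slit2 and Ntng1 among the ligands, and Epha3, Epha4, Epha5, Epha7, Robo1, Robo2, Unc5b and Dcc among the receptors. Higher were 2, the ligand gene Ntn1 and the receptor gene Unc5a. The test was limma's moderated test on log2(FPKM + 1), with a Benjamini-Hochberg adjusted p under 0.05 over all 12537 genes tested. Over those genes, 31.3% were called in either direction, 15.1% lower and 16.1% higher. Among the guidance genes tested, 41.9% were lower and 6.45% higher. Each log2 difference below is the Nfia mean minus the control mean of log2(FPKM + 1), a scale on which changes of low genes come out too small.

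**Figure D1:**
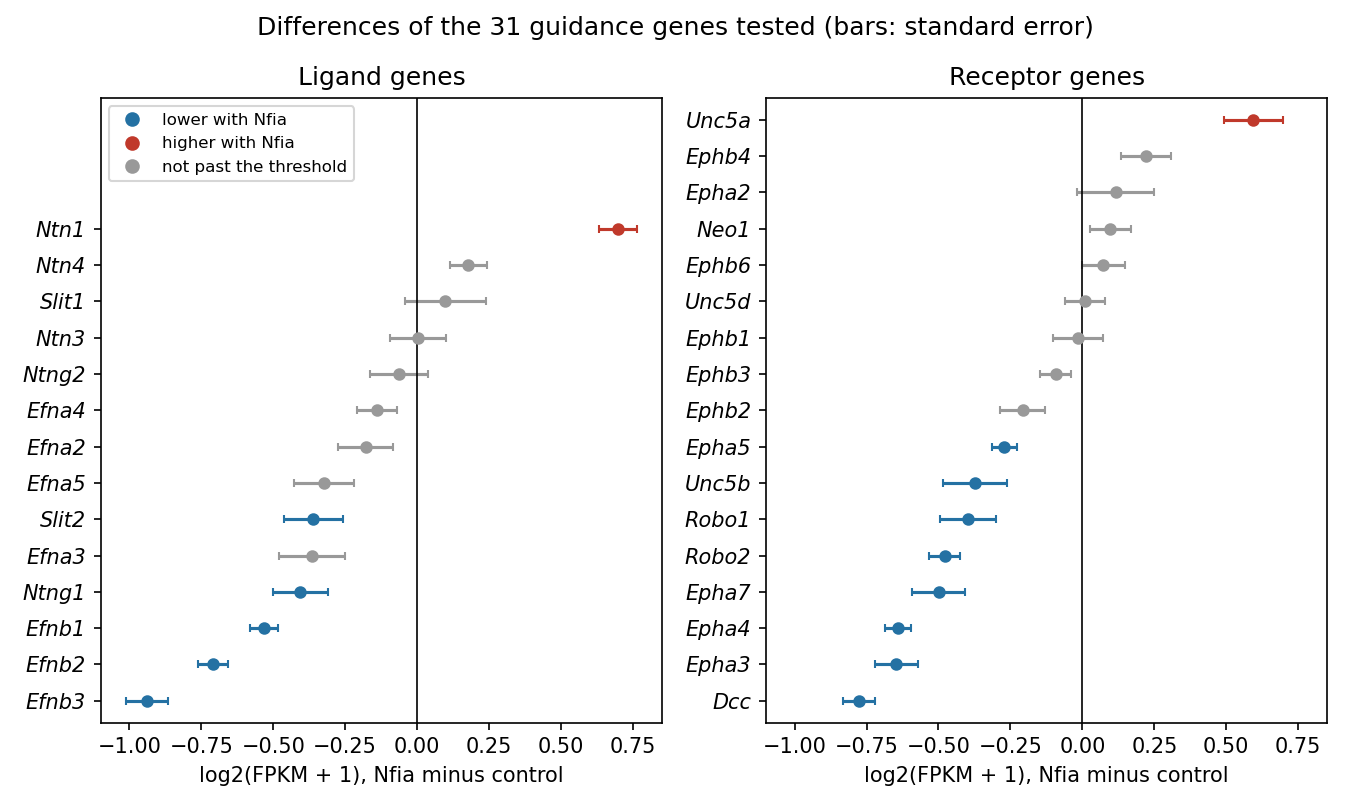
Difference in log2(FPKM + 1), Nfia minus control, of each guidance gene tested, with its standard error, for ligand genes (left) and receptor genes (right). Points of genes lower with Nfia are blue, higher red and not past the threshold grey. Ligand genes run between -0.94 (Efnb3) and 0.70 (Ntn1), receptor genes between -0.78 (Dcc) and 0.59 (Unc5a).

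Ligand and receptor genes are set side by side here, and their difference was not tested. Of 14 ligand genes tested, 5 were lower and 1 higher, with a median log2 difference of -0.25. The lower count was 3 without Nfia 1, Nfia 2 or control 2. Of 17 receptor genes tested, 8 were lower and 1 higher, with a median of -0.21, while the median of all genes tested was 0.01. All 3 ephrin-B genes and 4 of 5 EphA genes tested were called. By limma, 0 of 4 ephrin-A genes and 0 of 5 EphB genes were called, with 2 of each at an unadjusted p under 0.05 (Efna3 and Efna5, Ephb2 and Ephb4). Whether these subfamilies differ from one another was not tested.

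In control cells the ephrin-B genes took the first 3 places by level among the 40 genes. Efnb2 led with 86.1 ± 0.557 FPKM (SD, n = 3, as for all values of this form), above 91.0% of all genes tested, then Efnb1, Efnb3, Dcc and Neo1. With Nfia the order was Efnb2, Efnb1, Neo1, Ntn1 and Efnb3, so that Ntn1 stood at place 4 with Nfia and at place 12 in control. The libraries of neighbours in that order overlapped for Efnb1 and Neo1 and for Ntn1 and Efnb3 with Nfia. In control they overlapped for Neo1 and Epha4, and for Ntn1 and Ntn4 at places 12 and 13. At the other end, 9 genes stayed below a mean of 1 FPKM and were not tested: Efna1, Epha1, Epha6, Epha8, Epha10, Slit3, Robo3, Robo4 and Unc5c.

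**Figure D2:**
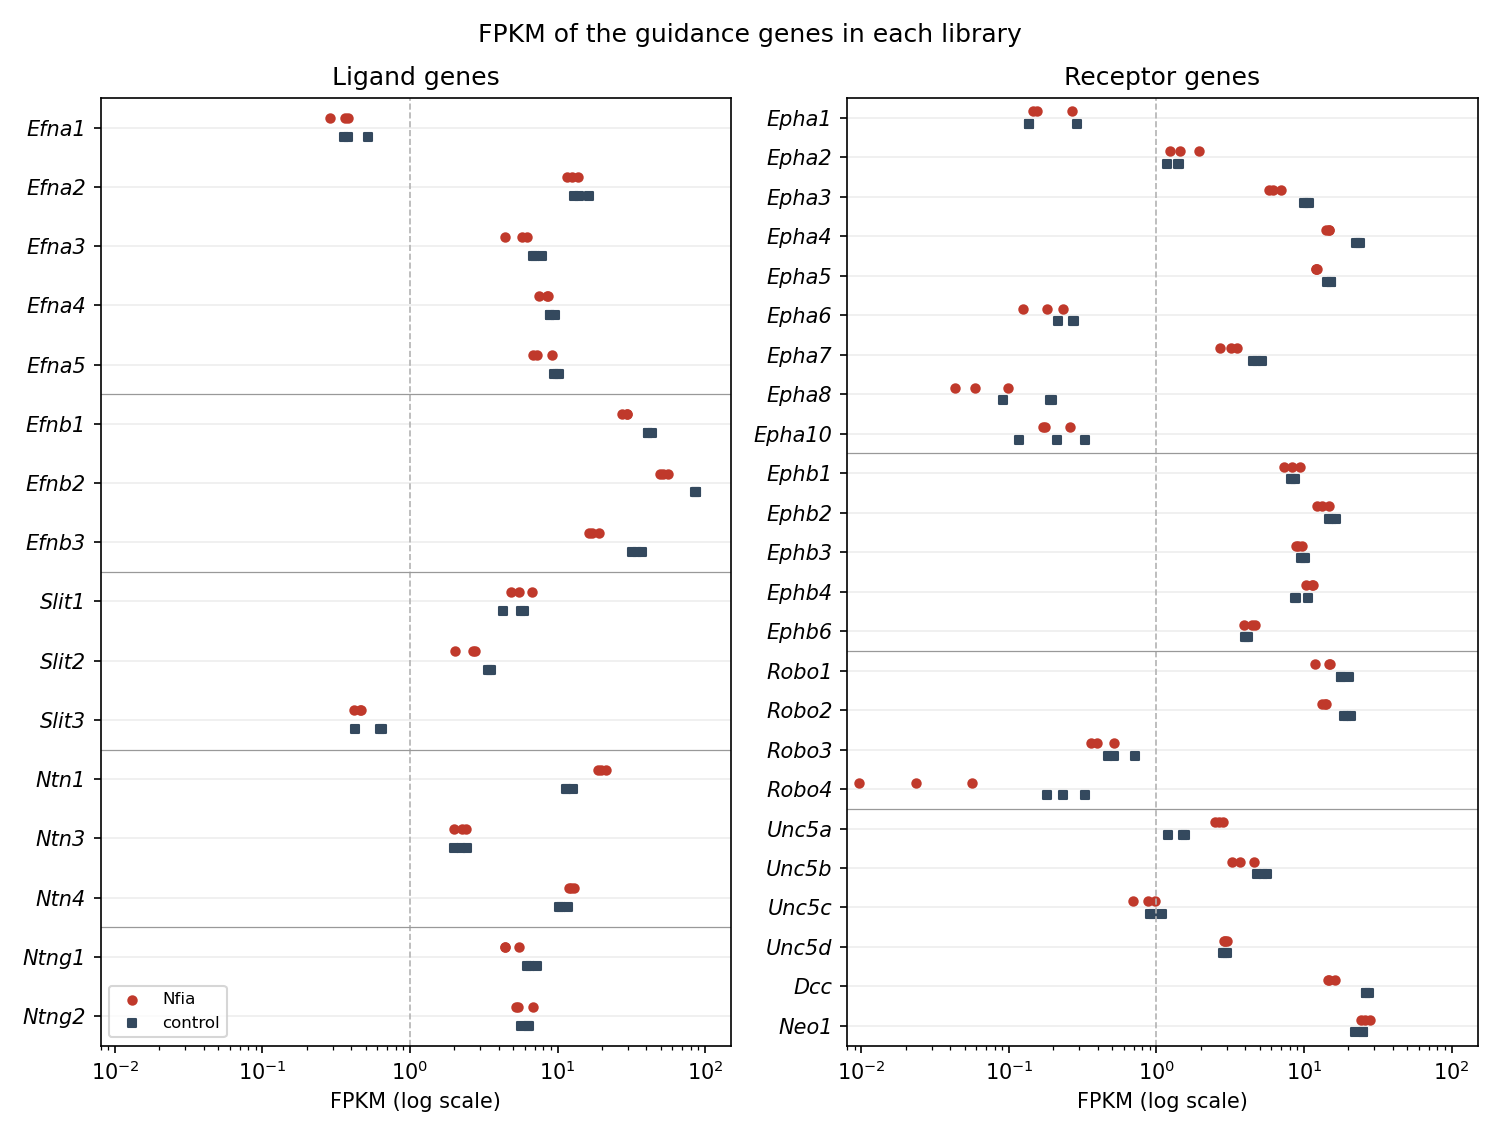
FPKM of all 40 guidance genes on a log axis, ligand genes left and receptor genes right, 1 point per library, with Nfia (red circles) above control (dark squares) for each gene. The dashed line marks 1 FPKM, the mean a gene needed over the 6 libraries to be tested. Groups are separate for 19 of the 31 genes tested (61.3%), beside 47.7% of all genes tested. Among these 19 are the 3 ephrin-B genes, Epha3, Epha4 and Dcc with Nfia lower, and Ntn1 and Unc5a with Nfia higher.

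Every ephrin-B gene fell. Efnb3, a ligand of the spinal cord midline that keeps axons from recrossing, was at 17.3, 16.4 and 19.0 FPKM in the Nfia libraries, against 34.4, 32.1 and 37.1 FPKM in the control libraries. All Nfia libraries were lower than all control libraries, by 49.2% in the mean (log2 difference -0.94, SE 0.07, adjusted p = 0.000447 by limma). Efnb2, which marks arteries in the vasculature and is also expressed by neural progenitors, was at 51.6, 49.5 and 56.0 FPKM with Nfia and at 85.4, 86.3 and 86.5 FPKM in control. The groups were again apart, 39.2% lower in the mean (log2 difference -0.71, SE 0.05, adjusted p = 0.000394 by limma). Efnb1, an X-linked gene needed for forming boundaries between cell groups, was at 29.4, 27.4 and 29.7 FPKM with Nfia and at 43.8, 41.3 and 41.1 FPKM in control. It was 31.5% lower (log2 difference -0.53, SE 0.05, adjusted p = 0.000699 by limma). Summed over the 3 genes, ephrin-B transcripts came to 98.7 ± 5.71 FPKM with Nfia and 163 ± 2.59 FPKM in control, and Efnb2 made up 53.0% of that sum with Nfia and 52.9% in control. In GRCm38, the assembly that mm10 denotes, Efnb2 lies on chromosome 8 from 8617235 to 8661242, Efnb3 on chromosome 11 from 69554092 to 69561150 and Efnb1 on chromosome X from 99136061 to 99149022.

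Promoter windows of 2 of these genes are shown because the genes fell together, and no window is listed for Efnb3. Each is the 250 bases before a transcript start, 5′ to 3′ on the gene's strand, from RefSeq on GRCm38.p6, chrX:99135811-99136060 (plus strand) for Efnb1 and chr8:8661243-8661492 (minus strand) for Efnb2. Capitals mark the NFI half-site, TTGGC or on the other strand GCCAA.
Efnb1: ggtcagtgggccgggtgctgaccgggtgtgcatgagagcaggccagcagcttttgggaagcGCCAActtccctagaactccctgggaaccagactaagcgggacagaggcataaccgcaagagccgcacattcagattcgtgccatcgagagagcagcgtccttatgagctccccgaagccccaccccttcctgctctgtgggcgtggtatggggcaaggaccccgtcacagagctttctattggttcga
Efnb2: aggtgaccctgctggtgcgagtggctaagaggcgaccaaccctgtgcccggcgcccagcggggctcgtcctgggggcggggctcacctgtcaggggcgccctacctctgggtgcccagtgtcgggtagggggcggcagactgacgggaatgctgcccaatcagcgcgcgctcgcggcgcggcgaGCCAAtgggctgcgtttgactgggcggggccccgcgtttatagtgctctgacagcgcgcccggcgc
Efnb1 has 1 half-site, with its first base 189 bases before the start, and Efnb2 has 1 at 66 bases before it. Such a half-site stood in 41.5% of all 32851 windows of this length in the table, and in 19 of the 40 windows of the 35 guidance genes listed there (47.5%). The 2 windows of Epha7 overlap, and the same site is counted in both. The full site, TTGGC and GCCAA with any 5 bases between them, holds a half-site on each strand and was in 0.0365% of all windows and in 0 of the guidance gene windows. Of the 12 called genes with a window, 6 held a half-site, beside 16 of all 35 guidance genes with a window. These are counts of genes, which cannot be set against the shares of windows. A gene with more windows has more chances, and Robo2 held a half-site in only 1 of its windows. The called genes Efnb3, Dcc and Ntn1 have no window listed and could not be examined.

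The ephrin-A genes were lower in the mean without passing the test. Efna3 was at 4.41, 5.76 and 6.18 FPKM with Nfia and at 7.05, 6.86 and 7.88 FPKM in control (log2 difference -0.37, adjusted p = 0.0507 by limma). Efna5, which maps axons in the visual system, was at 6.78, 7.27 and 9.19 FPKM with Nfia and at 9.41, 9.95 and 10.3 FPKM in control (log2 difference -0.32, adjusted p = 0.0540 by limma). For both, the groups did not overlap, as for 47.7% of all genes tested, and both passed the threshold in 7 of 16 alternative analyses. Efna2 was the highest ephrin-A, at 13.8, 11.6 and 12.6 FPKM with Nfia and at 14.1, 12.9 and 16.4 FPKM in control, and the groups overlapped. Efna4 averaged 8.20 ± 0.665 FPKM with Nfia and 9.12 ± 0.445 FPKM in control (adjusted p = 0.172 by limma). Efna3 and Efna4 are neighbours on chromosome 3 with Efna1, which stayed at or below 0.520 FPKM in every library. The ephrin-A sum was 34.4 ± 1.22 FPKM with Nfia and 41.2 ± 2.30 FPKM in control, so that there was 2.87 ± 0.0760 times as much ephrin-B as ephrin-A transcript with Nfia and 3.96 ± 0.179 times as much in control.

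Among the Eph receptors, 4 genes of the A class fell. Epha4, a receptor with affinity for both ephrin classes, was at 14.7, 14.1 and 14.8 FPKM with Nfia and at 23.1, 22.4 and 24.1 FPKM in control. The groups were far apart relative to their spread, with Nfia 37.4% lower (log2 difference -0.64, SE 0.05, adjusted p = 0.000344 by limma). Epha3 was at 5.80, 7.00 and 6.18 FPKM with Nfia and at 10.5, 9.95 and 10.9 FPKM in control, 39.5% lower (log2 difference -0.65, SE 0.07, adjusted p = 0.00146 by limma). Epha7, which helps to pattern the cortex, was at 2.72, 3.19 and 3.49 FPKM with Nfia and at 4.80, 4.51 and 5.16 FPKM in control (log2 difference -0.50, adjusted p = 0.00827 by limma). Epha5 had the smallest decrease of the 4, at 12.1, 12.3 and 12.2 FPKM with Nfia and at 15.1, 14.3 and 15.3 FPKM in control (log2 difference -0.27, adjusted p = 0.00565 by limma). None of these 4 overlapped between groups, as for 47.7% of all genes tested. Epha2, known from epithelial cells, was low, at 1.54 ± 0.366 FPKM with Nfia and 1.33 ± 0.140 FPKM in control, and did not pass the test (adjusted p = 0.551 by limma). Epha1, Epha6, Epha8 and Epha10 stayed at or below 0.325 FPKM in every library.

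The window of Epha4, the highest EphA gene, is shown to set beside those of the ephrin-Bs. It lies at chr1:77515089-77515338 (minus strand, GRCm38.p6), in the same layout.
Epha4: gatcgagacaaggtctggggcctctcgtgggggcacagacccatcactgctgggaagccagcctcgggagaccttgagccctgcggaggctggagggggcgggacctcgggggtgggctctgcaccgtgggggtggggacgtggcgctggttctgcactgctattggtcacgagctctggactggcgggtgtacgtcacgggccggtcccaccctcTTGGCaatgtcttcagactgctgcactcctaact
It holds 1 half-site, 34 bases before the start. Of the other EphA genes that fell, Epha7 has 2 windows that overlap and hold the same 1 half-site, and Epha3 and Epha5 have 0.

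The EphB genes did not pass the test in either direction, though Ephb2 passed in 3 of 16 alternative analyses (adjusted p = 0.0235 to 0.0469, lower) and Ephb4 in 1 (adjusted p = 0.0242 without control 2, higher). Ephb2 was at 13.2, 12.2 and 14.7 FPKM with Nfia and at 14.7, 16.5 and 15.5 FPKM in control, with groups that overlapped (log2 difference -0.21, 95% interval -0.39 to -0.03, adjusted p = 0.0822 by limma). Ephb4, the partner of Efnb2 in veins, was at 11.6, 10.3 and 11.4 FPKM with Nfia and at 8.83, 10.7 and 8.69 FPKM in control (log2 difference 0.22, 95% interval 0.02 to 0.43, adjusted p = 0.0955 by limma). These intervals are for a single gene and are not adjusted for the number of genes. Ephb1 averaged 8.35 ± 1.06 FPKM with Nfia and 8.41 ± 0.303 FPKM in control, with an interval of -0.22 to 0.19. For Ephb3 the interval was -0.22 to 0.03, and for Ephb6, which lacks kinase activity, -0.11 to 0.25. The EphB sum was 46.3 ± 3.05 FPKM with Nfia and 47.3 ± 2.07 FPKM in control, whereas the EphA sum was 38.4 ± 0.918 FPKM with Nfia and 55.5 ± 2.32 FPKM in control. Ephrin-B transcripts were 2.13 ± 0.0419 times the EphB sum with Nfia and 3.45 ± 0.194 times it in control. That ratio follows from the lower ephrin-B sum already given, so it is a description and not separate evidence.

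**Figure D3:**
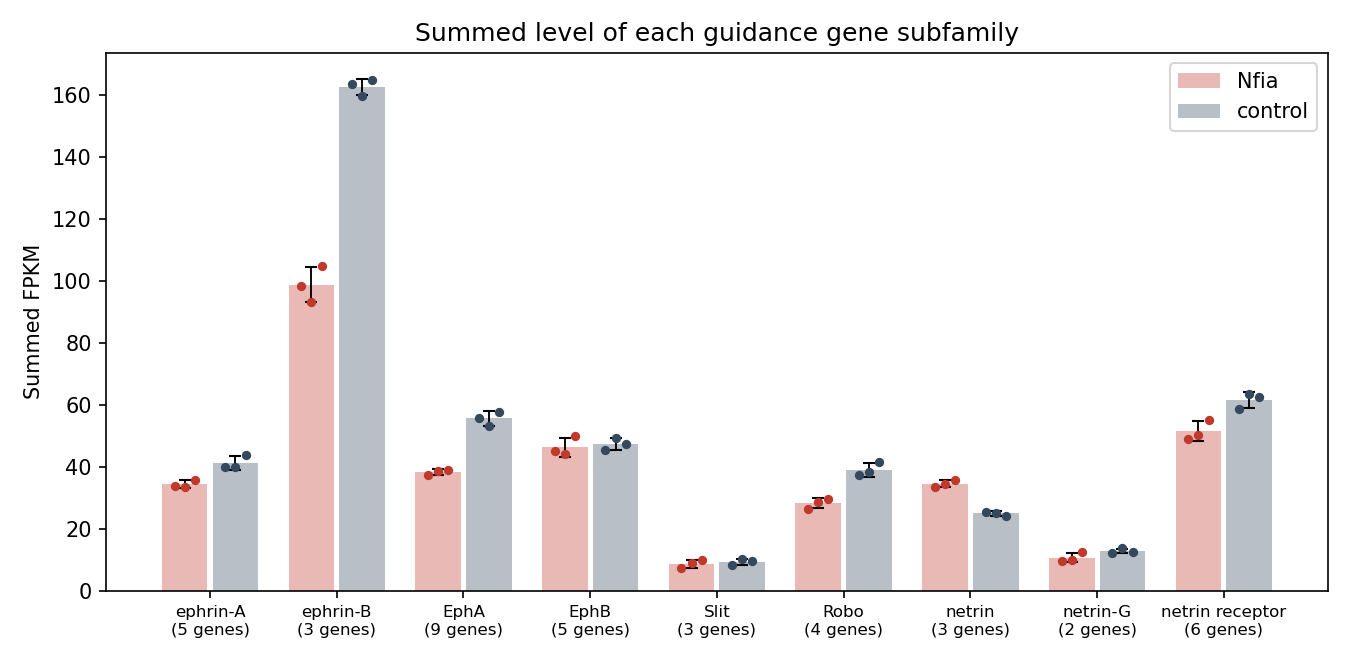
Summed FPKM of each subfamily per library (points), with the mean (bar) and SD (error bar) of 3 libraries, Nfia in red and control in grey. Ephrin-B stands at 98.7 FPKM with Nfia and 163 FPKM in control, EphA, Robo, ephrin-A and netrin receptor sums are also lower with Nfia, the netrin sum is higher, and EphB, Slit and netrin-G overlap.

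Both Robo genes that were tested fell. Robo2 was at 14.1, 13.2 and 13.9 FPKM with Nfia and at 18.6, 19.5 and 20.7 FPKM in control, with the groups apart (log2 difference -0.48, SE 0.05, adjusted p = 0.0014 by limma). Robo1 was at 11.9, 14.8 and 15.1 FPKM with Nfia and at 18.0, 17.8 and 20.2 FPKM in control (log2 difference -0.40, SE 0.10, adjusted p = 0.0218 by limma). Its Nfia libraries were also all lower, but its call ended without control 3 (adjusted p = 0.0710). Their ligand genes were expressed at lower levels. Slit1 overlapped between groups, at 5.69 ± 0.943 FPKM with Nfia and 5.25 ± 0.889 FPKM in control (adjusted p = 0.631 by limma). Slit2 was at 2.02, 2.77 and 2.68 FPKM with Nfia and at 3.51, 3.51 and 3.36 FPKM in control (log2 difference -0.36, adjusted p = 0.0384 by limma), a call that did not survive the removal of any single library (adjusted p between 0.0524 and 0.0974) or testing without the filter (adjusted p = 0.0679). Slit3 stayed at or below 0.643 FPKM and Robo3, a receptor of axons that cross the midline, at or below 0.711 FPKM.

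Robo4, the Robo of endothelial cells, was at 0.00959, 0.0233 and 0.0558 FPKM with Nfia, against 0.180, 0.328 and 0.233 FPKM in control, the lowest gene of the set with Nfia. It was below the filter and so was not tested in the main analysis. With no filter its log2 difference was -0.27 (adjusted p = 0.0130 by limma). Markers of endothelial cells were low in all libraries. The 12 markers summed to 2.74 to 3.94 FPKM with Nfia and 4.50 to 5.68 FPKM in control, with Cdh5 at or below 0.107 FPKM and at 0 in Nfia 3. Cldn5 was the only one of them to pass the filter, and it was lower with Nfia. Their part in the Robo4 values was not tested.

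Of the 3 netrin genes 1 rose and the others did not pass the test. Ntn1, the gene of netrin-1, was at 18.8, 19.6 and 21.2 FPKM with Nfia and at 11.3, 12.7 and 11.55 FPKM in control. All Nfia libraries were above all control libraries, with a mean 1.68-fold higher (log2 difference 0.70, SE 0.06, adjusted p = 0.00071 by limma). Ntn4, a netrin of basement membranes, was at 12.4, 12.9 and 11.9 FPKM with Nfia and at 11.7, 10.2 and 10.6 FPKM in control (log2 difference 0.18, adjusted p = 0.0739 by limma). Ntn3 overlapped between groups and averaged 2.22 FPKM with Nfia and 2.21 FPKM in control (adjusted p = 0.991 by limma). The netrin sum was 34.5 ± 1.07 FPKM with Nfia and 24.9 ± 0.701 FPKM in control, and Ntn1 made up 57.6% of it with Nfia and 47.6% in control. Ntn1 lies on chromosome 11 from 68209364 to 68386826 in GRCm38.

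Dcc, the receptor through which netrin-1 attracts axons, moved opposite to its ligand. It was at 14.7, 14.5 and 16.3 FPKM with Nfia and at 26.2, 27.8 and 26.2 FPKM in control, 43.1% lower and with groups far apart (log2 difference -0.78, SE 0.06, adjusted p = 0.000372 by limma). Neo1, neogenin, a receptor of the same family that also binds repulsive guidance molecules, was at 24.4, 25.8 and 27.8 FPKM with Nfia and at 22.2, 25.3 and 25.3 FPKM in control. Its groups overlapped (log2 difference 0.10, 95% interval -0.07 to 0.27, adjusted p = 0.338 by limma). The ratio of Ntn1 to Dcc, a pair chosen after the values were seen, was 1.27, 1.35 and 1.30 in the Nfia libraries and 0.433, 0.458 and 0.441 in the control libraries. Because the pair was chosen for its opposite changes, the ratio is a description and was not tested.

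The Unc5 genes, for netrin receptors that mediate repulsion, did not move together. Unc5a was at 2.82, 2.65 and 2.49 FPKM with Nfia and at 1.52, 1.19 and 1.56 FPKM in control, 1.86-fold higher with no overlap (log2 difference 0.59, SE 0.10, adjusted p = 0.00615 by limma). Unc5b, also a receptor of blood vessels, was at 3.25, 3.69 and 4.55 FPKM with Nfia and at 4.81, 5.57 and 5.29 FPKM in control (log2 difference -0.37, adjusted p = 0.0422 by limma). It lost that call on removal of any library but Nfia 3 (adjusted p between 0.0611 and 0.117) and when all expressed genes were tested (adjusted p = 0.0799). Unc5d averaged 2.93 ± 0.0506 FPKM with Nfia and 2.91 ± 0.0931 FPKM in control, with a 95% interval of -0.16 to 0.17 for the log2 difference. Unc5c was at 0.853 ± 0.148 FPKM with Nfia and 0.979 ± 0.0964 FPKM in control.

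**Figure D4:**
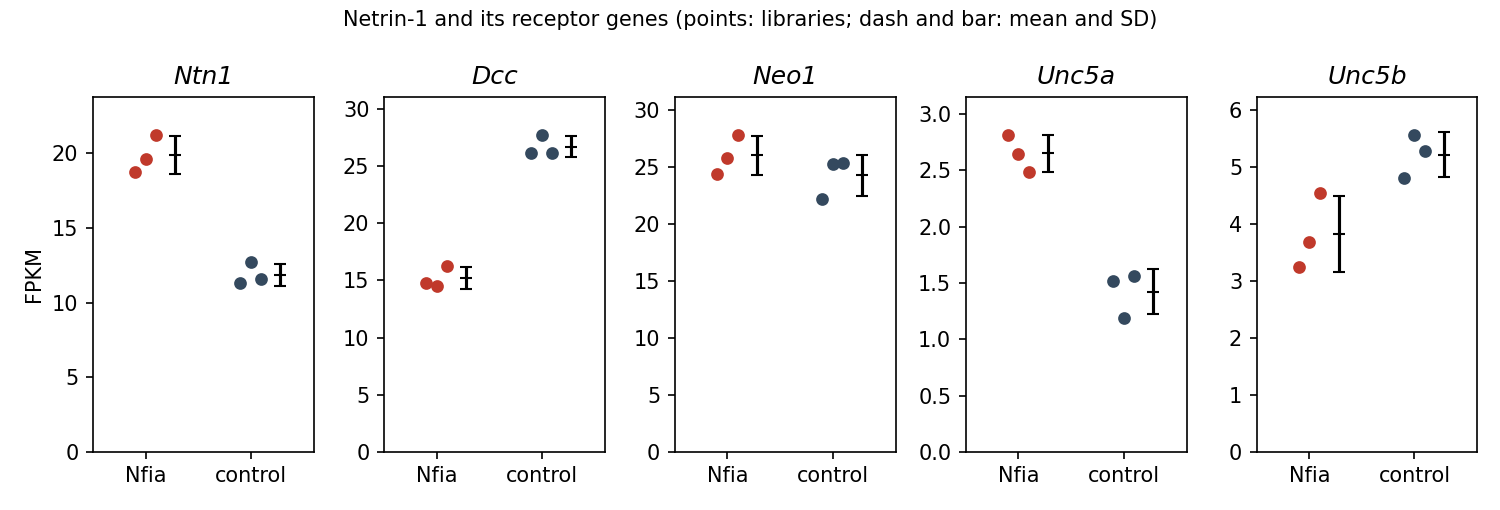
FPKM of Ntn1 and of 4 of its receptor genes in each library (points), with the mean and SD of each group beside them, on axes that start at 0. Ntn1 and Unc5a are higher in all 3 Nfia libraries than in any control library, Dcc and Unc5b lower, and Neo1 overlaps.

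A window of Unc5a, the receptor gene that rose, is shown as the only window listed for a gene that rose. It is the 250 bases before a transcript start inside the gene's span, at chr13:54949161-54949410 (plus strand, GRCm38.p6).
Unc5a: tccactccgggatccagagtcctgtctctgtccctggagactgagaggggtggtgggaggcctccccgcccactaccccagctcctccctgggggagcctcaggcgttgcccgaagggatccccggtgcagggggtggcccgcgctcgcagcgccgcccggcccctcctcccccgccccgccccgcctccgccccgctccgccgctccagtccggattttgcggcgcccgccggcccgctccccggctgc
It holds 0 half-sites, as do 5 of the 11 genes that fell and have a window (Epha3, Epha5, Ntng1, Robo1 and Unc5b), and 76.8% of its bases are G or C.

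The netrin-G genes encode membrane-anchored relatives of netrins that bind Lrrc4 family proteins in place of Dcc. Ntng1 was at 4.43, 4.43 and 5.47 FPKM with Nfia and at 6.48, 7.28 and 6.17 FPKM in control, with no overlap (log2 difference -0.41, SE 0.10, adjusted p = 0.0190 by limma). Its call ended without Nfia 1, Nfia 2 or control 2 (adjusted p = 0.0550, 0.0665 and 0.0573). Ntng2 overlapped, at 5.84 ± 0.897 FPKM with Nfia and 6.11 ± 0.376 FPKM in control. Their partners, named after their values were seen, went opposite ways. Lrrc4c, which binds netrin-G1, averaged 3.64 ± 0.202 FPKM with Nfia and 5.64 ± 0.693 FPKM in control (log2 difference -0.51, adjusted p = 0.00661 by limma). Lrrc4, which binds netrin-G2, averaged 8.28 ± 0.272 FPKM with Nfia and 7.09 ± 0.296 FPKM in control (log2 difference 0.20, adjusted p = 0.0321 by limma). The Lrrc4 call held in 9 of 16 alternative analyses. With 1 library left out it held only without Nfia 1 (adjusted p between 0.0491 and 0.106 by limma over these fits).

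Around these receptors, a list of 61 symbols for other ligands, co-receptors and cytoplasmic partners was read out, of which 57 were in the libraries and 56 were tested. In this list 14 genes were higher (25.0%) and 10 lower (17.9%), with a median log2 difference of 0.01, beside 16.1% higher and 15.1% lower among all genes tested. The higher count was 5 without Nfia 2, 6 without Nfia 3, 8 without control 1 or control 2 and 9 without control 3, and the lower count was 6 without Nfia 2 or control 2. Vav3, a signalling protein that acts below Eph receptors, was at 23.1 ± 0.720 FPKM with Nfia and 12.5 ± 0.263 FPKM in control (log2 difference 0.84, adjusted p = 0.000151 by limma). Srgap2, a GTPase-activating protein that binds Robo, was at 43.7 ± 1.95 FPKM with Nfia and 32.6 ± 2.17 FPKM in control (log2 difference 0.41). Its relative Srgap3 was lower (log2 difference -0.21, adjusted p = 0.0244 by limma), and Srgap1 did not pass the test. Ptk2, the focal adhesion kinase, which acts below Dcc, and Gpc1, a proteoglycan that binds Slit, were higher by log2 differences of 0.26 and 0.29. Among the genes that fell, Pak1, a kinase driven by Rac and Cdc42, was at 30.0 ± 0.851 FPKM with Nfia and 39.8 ± 0.866 FPKM in control (log2 difference -0.40, adjusted p = 0.00101 by limma). Rgmb, a repulsive guidance molecule that binds neogenin, was at 19.7 ± 0.0622 FPKM with Nfia and 28.0 ± 1.74 FPKM in control (log2 difference -0.48). Its relative Rgma went the other way and was higher (log2 difference 0.30, adjusted p = 0.0355 by limma). Chn2, a chimaerin that inactivates Rac, and the kinase gene Src had log2 differences of -0.42 and -0.27.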

How the data were processed

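Poly(A) RNA was sequenced with a directional kit, per the labels' protocols. The values that the authors deposited are FPKM, 1 per gene symbol and library, a unit inferred from the numbers because no header names it. The submitters' processing notes list Cuffdiff, Cufflinks, TopHat, SAMtools, MACS version 1.4, Bowtie version 1 and the build mm10, with no role. The sources used here do not name the gene annotation, the filters or how strand was handled, so overlapping genes on opposite strands may share reads. Because FPKM is relative to each library's total, a rise of abundant transcripts lowers the rest. Absolute depth is unknown and no counting interval is given. Relative depth is the most common ratio to control 1 among genes with a mean below 0.3 FPKM. The bin of that ratio held 10.8% (Nfia 1) to 12.6% (Nfia 3) of the genes used, so these depths are approximate.

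Genes averaging 1 FPKM or more across all 6 libraries were compared on log2(FPKM + 1) by a two-sided test in limma (version 3.58.1, under R version 4.3.3), with a variance trend, 4 residual degrees of freedom and Benjamini-Hochberg adjustment over 12537 genes. On simulated data of 12537 genes for this comparison, in 20 runs, 71.8% of changes of 0.5, 95.1% of 1 and 98.5% of 2 (log2) were recovered, and 3.79% of calls were false. The simulation changed a far smaller share of genes than the 31.3% called here, with independent noise for each gene. Its rates may therefore differ from those of the real comparison. The guidance genes, their roles, the partner and marker lists and the rule for naming genes (all guidance genes, and of the partners the 4 smallest adjusted p in each direction, to which Lrrc4c and Lrrc4 were added after their values were seen) were chosen with earlier results of these data known. All 40 symbols matched the RefSeq table of GRCm38.p6, and 35 had a promoter window. Same-numbered libraries of the groups did not deviate together (correlations over genes of 0.0264, -0.00578 and 0.0461), so the libraries were not treated as pairs. The 2 ChIP samples (Flag, IgG) were left out and are not analysed here.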

Additional observations from a re-analysis of the deposited data

How the results depend on the processing

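The 16 alternatives were another pseudocount (0.1), no filter or a minimum mean of 5 FPKM, scaling by upper quartile, by median of ratios or by quantiles, no or a robust variance trend, library quality weights, the replicate block, and each library left out in turn. No called guidance gene changed direction in any of them. Of the 15 calls, 13 were kept with no filter, 14 with the replicate block and all 15 under each scaling. With a minimum mean of 5 FPKM, 11 were kept, since Epha7, Slit2, Unc5a and Unc5b were then not tested. That left 1 guidance gene higher and 0 receptor genes higher by limma (1 at an unadjusted p under 0.05). The replicate block lost Slit2 and added Efna3 and Efna5 (16 calls; adjusted p = 0.0541, 0.0344 and 0.0317). Library quality weights gave 19 calls and 2 higher ligand genes. With no filter the medians were -0.16 for ligands and -0.11 for receptors. Of partner genes, 9 were higher with no filter and 8 under upper-quartile scaling. With 1 library left out, 1311 (without Nfia 2) to 1724 of all genes were higher, 1 to 2 ligand genes higher and 3 to 6 lower, 1 to 2 receptor genes higher, and 5 to 10 partner genes higher and 6 to 8 lower. Without Nfia 1, Nfia 2 or control 2 there were 3 lower ligand genes, and without Nfia 2 there were 5 higher partner genes. Signs turned only in genes that never passed the test: with 1 library left out, Ephb1 (-0.10 to 0.0685), Slit1 (-0.0251 to 0.19), Ntn3 (-0.0505 to 0.0510), Ntng2 (-0.17 to 0.00014) and Unc5d (-0.00879 to 0.0255), under upper-quartile scaling Ntn3 (-0.0197) and Unc5d (-0.0156), and with library weights Ntn3 (-0.0330). The causes were not tested. Upper-quartile scaling gave 1705 of all genes higher and 2206 lower, against 2020 and 1898 as deposited. The fragments behind low values are unknown, which limits what can be said of genes below 1 FPKM.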
